A study of Mus musculus with 16 samples.

Results

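Muscle-secreted factors, often called myokines, are proteins that muscle fibres and the cells around them release to act on the muscle itself or on distant tissues. 10 genes of this kind (Mstn, Gdf11, Gdf15, Fndc5, Bdnf, Il15, Il6, Fgf21, Metrnl and Sparc) were selected by name from the 23235 gene names of the mRNA table, and the counts of all transcripts with the same gene name were summed for each mouse. RNA from skeletal muscle of 16 male C57BL/6J mice, 6 weeks old at the start, had been sequenced with 1 library per mouse and 4 mice per group. The control group received a normal diet, and the HFD group received a diet with 60% fat for 8 weeks. The HFD + MET group received metformin for 6 weeks, and the HFD + RSV group received resveratrol for 6 weeks (its label spells the compound reveratrol). In both treated groups, 8 weeks of the same diet came before the treatment. Whether the diet went on during treatment, and the age of each group at collection, are not given in the sources used here. The dose of metformin, the muscle sampled, and whether the untreated groups received the solvent are not given in the sources used here. Some mice of the study received insulin shortly before collection, and whether the sequenced mice were among them is not given. The labels of all 4 HFD mice carry the leading number 7, which no mouse of another group carries, so that anything this number marks cannot be told apart from the HFD group. The comparisons asked which of these genes differed with the HFD and which differed with RSV or MET in mice given the HFD.

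Myostatin (Mstn) and its close relative Gdf11 belong to the TGF-beta family, bind activin type II receptors and signal through Smad2 and Smad3, and myostatin restrains muscle growth. Fndc5 encodes the membrane protein from which irisin is released, and its transcription is known to respond to Ppargc1a. Il15 and Il6 are cytokines that muscle releases with contraction, Fgf21 and Gdf15 are stress-induced hormones, Bdnf is a neurotrophin, Metrnl is a hormone-like protein related to meteorin, and Sparc is a collagen-binding matrix protein.

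The tissue label was checked against marker genes. Myh4, the myosin of fast fibres, had 27329 to 62461 CPM (counts scaled by library size) in the 16 mice, whereas the 4 retina markers found in the table summed to at most 0.843 CPM, although the extraction text of the labels names retinas. The summed count of the mRNA table was 17625909 to 29761026 per mouse, and 3 counts, taken as the floor of a count of 0, correspond to 0.101 to 0.170 CPM. Libraries also differed in cell types other than muscle fibres. The 5 white adipocyte markers summed to 11.8 to 1314 CPM per mouse with the highest value in HFD + MET 3, Ucp1 of brown adipocytes reached 408 CPM in control 3 and 89.9 CPM in HFD + MET 3, and the 4 Schwann cell markers summed to 26.4 to 299 CPM with the highest value in HFD + RSV 2. Fewer cells of a type and less RNA per cell cannot be told apart in whole muscle. P values of the fits set a difference between groups against the variation between mice, which is estimated with information shared across genes.

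The genes differed in level by 3 orders of magnitude. Levels between genes are compared as FPKM, which is per length, summed over the transcripts of a gene. Sparc had the highest mean level, 95.4 ± 35.4 FPKM (SD, n = 16 mice), and lay above every other member in all 16 mice. Mstn followed with 21.1 ± 6.63 FPKM and Fndc5 with 14.2 ± 5.69 FPKM, and these neighbours overlapped, since Mstn was above Fndc5 in 11 of 16 mice. Il15 (3.83 ± 0.788 FPKM), Gdf11 (3.38 ± 2.12 FPKM) and Metrnl (2.93 ± 0.791 FPKM) formed a middle tier without a fixed order between mice. Bdnf was lower, at 0.466 ± 0.255 FPKM. Il6, Fgf21 and Gdf15 had means of 0.183, 0.0870 and 0.0677 FPKM, and each was listed at 0 in at least 1 mouse. Gdf11 varied most among the genes with sufficient counts, with an SD of 62.9% of its mean over the 16 mice, against 20.6% for Il15.

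**Figure D1:**
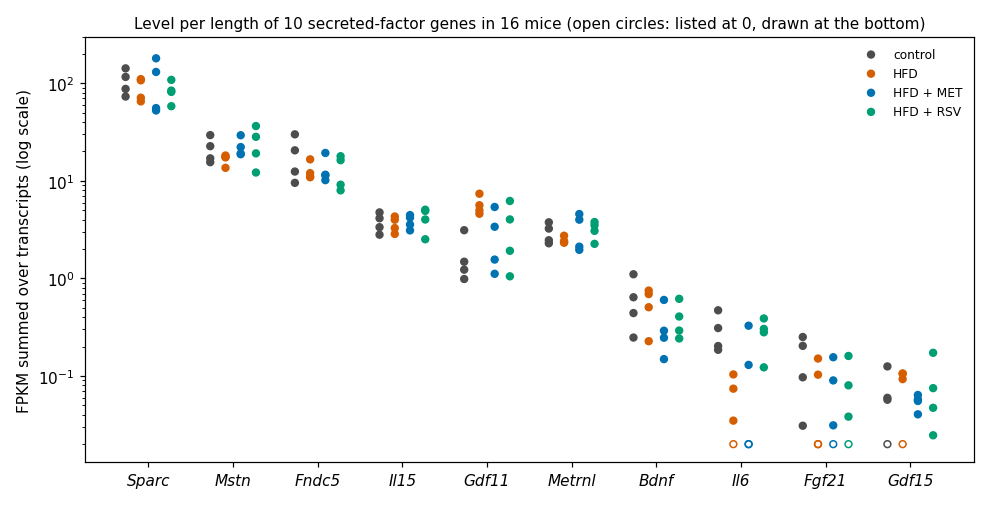
Level per length (FPKM, log axis) of the 10 genes in each of the 16 mice, coloured by group, with genes ordered by mean. Sparc lies highest with 52.7 to 180 FPKM, Gdf11 spreads most among the 7 higher genes, and Il6, Fgf21 and Gdf15 hold open circles where they were listed at 0.

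7 of the 10 members (Mstn, Gdf11, Fndc5, Bdnf, Il15, Metrnl and Sparc) passed the filter on low counts and were tested together with all 15364 genes that passed it. Il6, with 0 to 13 counts per mouse, Fgf21, with 0 to 5, and Gdf15, with 0 to 7, did not pass and are too low to judge with this test. A gene was called when its adjusted P (Benjamini-Hochberg over all genes tested) from the quasi-likelihood test of edgeR was under 0.05. Between HFD and control mice, 0 of 7 members were called, beside 2.43% of all genes tested (374 genes). Between HFD + RSV and HFD mice, 0 of 7 were called beside 0% of all genes, and between HFD + MET and HFD mice, 0 of 7 beside 0.013%. The same count of 0 was found for HFD + RSV against control (all genes 0.00651%), HFD + MET against control (0%), HFD + RSV against HFD + MET (0%) and for any difference among the 4 groups (0.117%). DESeq2 called 1 member, Gdf11, in HFD against control, where it called 1544 of all genes, against 374 in the main fit. It called no other member in any comparison.

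At an unadjusted P under 0.05, 1 of 7 members (Gdf11) passed in HFD against control, where 24.2% of all genes did. With 7 members, their share cannot be told apart from that of all genes. None passed in HFD + RSV against HFD (all genes 4.72%), HFD + MET against HFD (8.02%), HFD + RSV against control (15.8%), HFD + MET against control (9.5%) or HFD + RSV against HFD + MET (4.68%), and Gdf11 alone passed in the test of any difference among the 4 groups (adjusted P = 0.317), where 15.4% of all genes did. With a P under 0.05, taken here as unadjusted, and an absolute log2FC above 1, Gdf11 was again the only member in HFD against control, beside 4.94% of all genes. The median log2FC of the 7 members was -0.05 in that comparison, -0.15 in HFD + RSV against HFD and -0.05 in HFD + MET against HFD, and the median of all genes was between -0.02 and 0.02 in these comparisons.

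**Figure D2:**
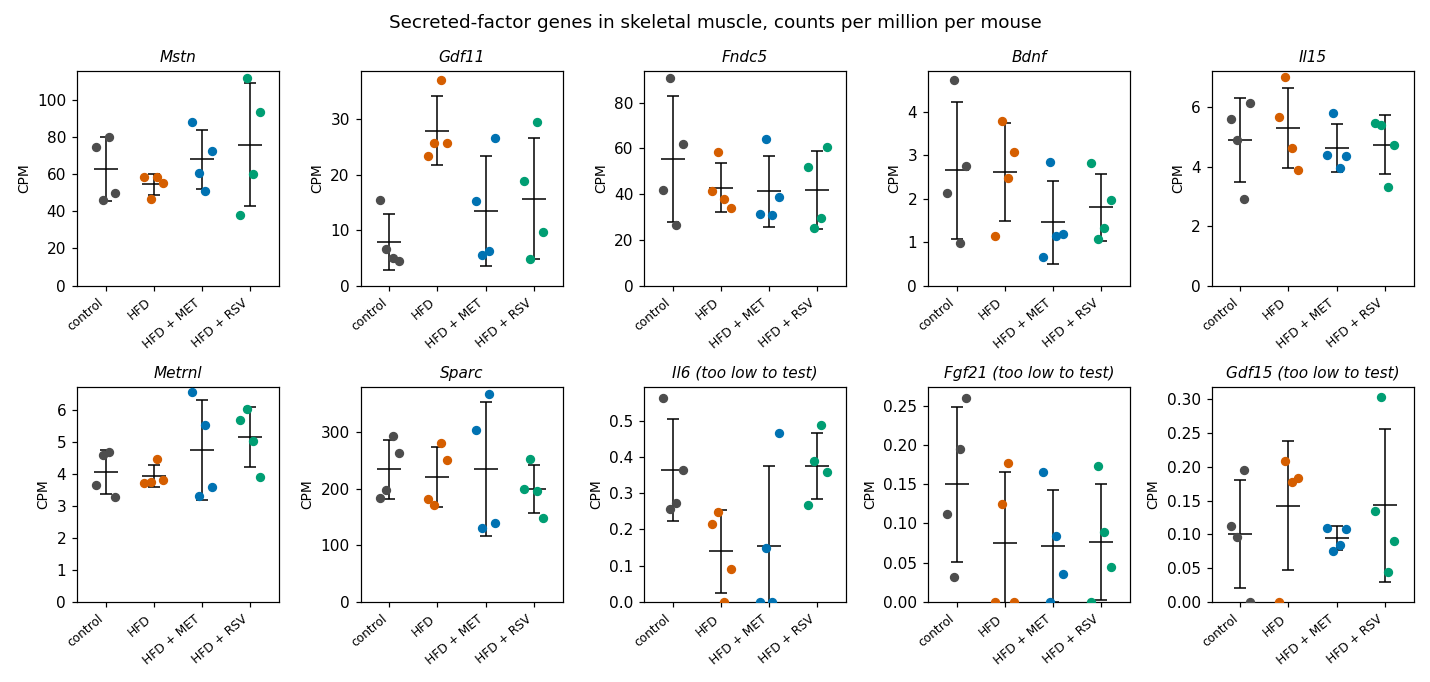
CPM of each of the 10 genes (vertical axes start at 0 and differ between panels) for 4 mice per group, each point 1 mouse, with the mean as a horizontal line and bars of ± 1 SD, which are not drawn below 0. Gdf11 is the only one of the 7 tested genes in which the HFD mice (23.3 to 37.0 CPM) all lie above the control mice (4.37 to 15.4 CPM).

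Gdf11 and Mstn are shown first because they are the closest relatives in the set. The 250 bases before the RefSeq start site at or near which all counted transcripts of each gene begin are given on the coding strand (RefSeq, GRCm38.p6), where capitals mark the E-box CANNTG, the motif bound by myogenic regulatory factors, whose palindromic form is read on both strands. Overlaps with other motifs were not examined. The Mstn stretch is chr1:53061390-53061639 on the plus strand and the Gdf11 stretch is chr10:128891719-128891968 on the minus strand.
Mstn: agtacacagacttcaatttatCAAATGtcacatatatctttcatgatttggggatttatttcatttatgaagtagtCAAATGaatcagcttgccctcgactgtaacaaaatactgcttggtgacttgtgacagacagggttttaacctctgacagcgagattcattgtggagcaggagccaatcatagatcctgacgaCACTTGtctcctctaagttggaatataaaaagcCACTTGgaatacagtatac
Gdf11: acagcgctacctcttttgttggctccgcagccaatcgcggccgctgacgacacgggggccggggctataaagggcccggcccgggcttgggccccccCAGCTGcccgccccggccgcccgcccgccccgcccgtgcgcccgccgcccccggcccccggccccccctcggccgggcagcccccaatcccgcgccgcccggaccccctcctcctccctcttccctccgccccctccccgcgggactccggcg
Mstn had 4 matches and Gdf11 had 1. Of all windows of the same length in the RefSeq table, 66.2% held at least 1 match and 3.83% held at least 4. Windows were found for 9 of the 10 members, and all windows other than that of Mstn held 0 to 3 matches. Whether the matches bear on the levels of the genes was not tested.

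Gdf11 (ENSMUSG00000025352, chr10:128882295-128891718, minus strand), represented by a single transcript, was higher in every HFD mouse than in every control mouse. Its level was 15.4, 6.60, 5.04 and 4.37 CPM in control mice 1 to 4 (84 to 275 counts) and 23.3, 25.7, 37.0 and 25.7 CPM in the HFD mice (538 to 836 counts). These groups did not overlap, a pattern that 18.3% of all genes tested had in this comparison. In the HFD + MET group the values were 15.3, 5.43, 6.25 and 26.6 CPM, and in the HFD + RSV group they were 18.9, 4.86, 29.4 and 9.57 CPM. Both treated groups therefore contained mice at the level of the control mice and 1 mouse at the level of the HFD mice, and 3 of 4 mice in each lay below the lowest HFD mouse.

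The log2FC of Gdf11 was 1.84 ± 0.595 (SE, 95% confidence interval 0.56 to 3.11) in HFD against control, a 3.57-fold difference with an adjusted P of 0.0928, which missed the threshold. The call depended on the fit. DESeq2 gave an adjusted P of 0.0167, and a fit to the 8 mice of the compared groups gave 0.0358. The fit without control 1, the control mouse with the highest Gdf11, gave a log2FC of 2.38 and an adjusted P of 0.0471. These settings also called more of all genes in this comparison (1544, 998 and 773, respectively, against 374 in the main fit). The fit without HFD + MET 3 called 1588 genes and gave Gdf11 an adjusted P of 0.0607. Over all alternatives the adjusted P was 0.0167 to 0.242 and the log2FC stayed between 1.64 and 2.38. The log2FC was -0.83 ± 0.575 in HFD + RSV against HFD (adjusted P = 0.999) and -1.06 ± 0.578 in HFD + MET against HFD (adjusted P = 0.636), with confidence intervals of -2.06 to 0.40 and -2.29 to 0.18. Against the control group, Gdf11 gave a log2FC of 1.00 ± 0.587 in the HFD + RSV group (adjusted P = 0.417) and 0.78 ± 0.586 in the HFD + MET group (adjusted P = 0.717). The HFD mice are shared by 3 of these comparisons and the control mice by 3.

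Genes of fibre types and of other cells are given beside Gdf11 in the same libraries. Myh7, the myosin of slow fibres, was 2.81 CPM in control 1 and 457 to 917 CPM in the other control mice, and 2.71 to 59.4 CPM in the HFD mice (log2FC -4.46 ± 1.45, adjusted P = 0.0941). Myh4 gave a log2FC of 0.67 ± 0.249 (adjusted P = 0.127) in the same comparison. The 5 white adipocyte markers, of which 4 gave a negative log2FC, summed to 214 to 1120 CPM in control and 30.4 to 311 CPM in HFD mice. Of the 3 brown adipocyte markers 2 gave a negative log2FC, and Cidea, a lipid droplet gene, passed the test (21.5 to 285 CPM against 0.779 to 2.39 CPM, adjusted P = 0.0474). All 4 Schwann cell markers gave a negative log2FC, with sums of 44.4 to 148 CPM against 29.5 to 40.0 CPM. No marker of these lists was at 0 throughout a group, and their part in the result was not tested. Without control 3 and HFD + MET 3, the libraries with the most Ucp1, the log2FC of Gdf11 was 1.67 (adjusted P = 0.166).

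The gene whose pattern over the 16 mice was most like that of Gdf11 was Gfpt1, which encodes the first enzyme of the hexosamine pathway (Pearson r = 0.947 between log2 CPM values, n = 16), followed by Dkk3, a secreted protein of the Dickkopf family (r = 0.930), and Six2, a homeobox gene (r = 0.920). For Gfpt1, Spearman rho was 0.891, r was 0.938 without the 2 mice farthest from the median of Gdf11, and r was 0.910 after group means were subtracted, but within the 4 HFD mice it was -0.147. Gdf11 gave r = 0.750 with Myh4 and r = -0.700 with Myh7 over all mice, and 0.622 and -0.559 after group means were subtracted. These relations did not hold within every group, since Myh4 gave -0.118 in HFD and 0.086 in HFD + RSV mice, and Myh7 gave 0.683 in HFD mice. These values are descriptions over mice that share one scaling of library sizes, and the 3 genes were the highest of all genes tested.

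Mstn (ENSMUSG00000026100, chr1:53061640-53068079, plus strand) was well measured, with 850 to 2578 counts per mouse, and no difference was detected between any groups. Its level was 74.4, 46.0, 80.2 and 50.1 CPM in control mice, 58.4, 46.5, 58.7 and 55 CPM in HFD mice, 88.2, 60.4, 50.8 and 72.3 CPM in HFD + MET mice, and 38.0, 112, 60.2 and 93.4 CPM in HFD + RSV mice. The HFD + RSV group held both the lowest and the highest value of the 16 mice. The log2FC was -0.20 ± 0.283 in HFD against control (adjusted P = 0.706), 0.47 ± 0.283 in HFD + RSV against HFD (confidence interval -0.13 to 1.08, adjusted P = 0.999) and 0.31 ± 0.283 in HFD + MET against HFD (adjusted P = 0.762). The transcript Mstn-201 held 95.7% of its counts. The Mstn pattern was most like those of Pld5 (r = 0.851), Hoxd9 (r = 0.838) and Fam69a (r = 0.835), and with Gdf11 its r was only -0.217.

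Of the 18 genes in the list of receptors, inhibitors, proteases and Smads of the myostatin and GDF11 pathway, 17 passed the filter and none was called in any of the 3 main comparisons. Their median log2FC was -0.03 in HFD against control, -0.04 in HFD + RSV against HFD and -0.01 in HFD + MET against HFD. At an unadjusted P under 0.05, 4 of 17 passed in HFD against control, close to the share of all genes. The activin receptor Acvr2a came nearest, with 57.8 to 67.2 CPM in control and 72.2 to 94.5 CPM in HFD mice (log2FC 0.44 ± 0.115, adjusted P = 0.0571). The extracellular inhibitor follistatin (Fst) gave a log2FC of -0.27 ± 0.255 (adjusted P = 0.546). Both were named after their values were seen, as were the other genes below that did not pass the test. Groups without overlap were found for 18.3% of all genes tested in this comparison.

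Fndc5 and Bdnf varied together over the mice, and neither differed between groups beyond the spread of the mice. Fndc5 (ENSMUSG00000001334, chr4:129136999-129144593, plus strand) was at 42.0, 90.7, 26.6 and 61.9 CPM in control mice, 41.3, 58.4, 37.8 and 33.9 CPM in HFD mice, 31.3, 64.0, 31.1 and 38.7 CPM in HFD + MET mice, and 52.1, 25.1, 29.4 and 60.7 CPM in HFD + RSV mice. Every group spanned low and high values and all groups overlapped. The log2FC was -0.37 ± 0.372 in HFD against control (confidence interval -1.17 to 0.43, adjusted P = 0.572), -0.04 ± 0.372 in HFD + RSV against HFD (adjusted P = 0.999) and -0.05 ± 0.372 in HFD + MET against HFD (adjusted P = 0.976).

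Bdnf (ENSMUSG00000048482, chr2:109674700-109727007, plus strand) rested on 12 to 147 counts per mouse. Its level was 2.13, 4.73, 0.977 and 2.76 CPM in control mice, 1.13, 3.78, 2.48 and 3.08 CPM in HFD mice, 0.660, 2.85, 1.14 and 1.19 CPM in HFD + MET mice, and 2.82, 1.08, 1.33 and 1.97 CPM in HFD + RSV mice. The means of the treated groups were lower than that of the HFD group, but the values overlapped. The log2FC was -0.03 ± 0.503 in HFD against control (adjusted P = 0.982), -0.54 ± 0.512 in HFD + RSV against HFD (adjusted P = 0.999) and -0.82 ± 0.515 in HFD + MET against HFD (confidence interval -1.93 to 0.28, adjusted P = 0.673). The gene lies opposite to an antisense gene, Gm45346, and the library kit does not mark strand, so that reads of the shared part cannot be assigned.

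Over the 16 mice, Fndc5 and Bdnf gave r = 0.779 (Spearman rho 0.724), the highest of the 21 pairs of tested members, with r = 0.687 without the 2 mice farthest from the median of Fndc5. After group means were subtracted r was 0.815, and within groups it was 0.988 in control, 0.286 in HFD, 0.929 in HFD + MET and 0.874 in HFD + RSV, each over 4 mice. Fndc5 was also compared with fibre genes. With Mb, which encodes myoglobin, r was 0.910 over all mice and 0.897 to 0.958 within the groups, and with Myh2, the myosin of fast oxidative fibres, r was 0.885. With the myosin genes Myh1 and Myh4 r was 0.772 and -0.230. With the slow fibre genes Myh7 and Tnnt1 r was 0.215 and 0.331 over all mice. Within the groups it was -0.058 to 0.694 for Myh7 and 0.070 to 0.827 for Tnnt1, each highest in HFD + MET mice. With Ppargc1a r was 0.655. The 6 mice with Fndc5 above 50 CPM, a limit set after the values were seen, had 1140 to 1646 CPM of Mb, and the other 10 had 429 to 847 CPM. The part of fibre makeup in the Fndc5 and Bdnf levels was not tested. The genes most like Fndc5 were Slc41a1 (r = 0.923), Homer2 (r = 0.921) and Coro6 (r = 0.914), and those most like Bdnf were Iba57 (r = 0.901), Mlycd (r = 0.894) and again Coro6 (r = 0.874).

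**Figure D3:**
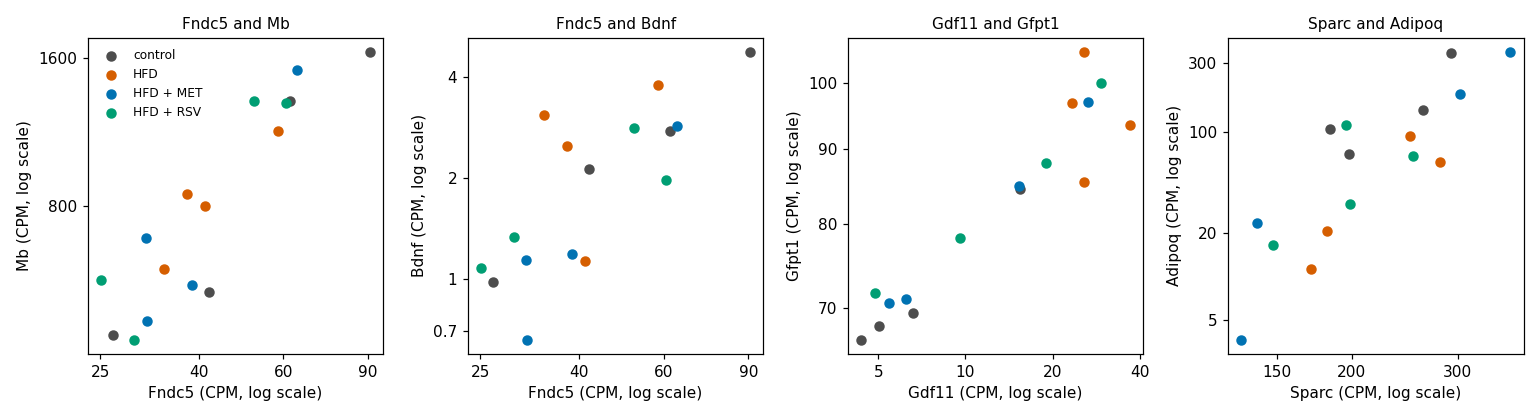
Pairs of genes over the 16 mice (CPM, log axes, 1 point per mouse, coloured by group) for Fndc5 with Mb, Fndc5 with Bdnf, Gdf11 with Gfpt1 and Sparc with Adipoq. The points rise together in all panels (r = 0.910, 0.779, 0.947 and 0.854), and in the panels with Fndc5 the groups overlap one another.

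None of the 6 genes listed as irisin and FNDC5 partners was called in the main comparisons. Ppargc1a gave a log2FC of 0.25 ± 0.258 in HFD against control (adjusted P = 0.582). Itgav, a subunit of an integrin proposed as an irisin receptor, was 31.0 to 41.4 CPM in control and 45 to 95.2 CPM in HFD mice (log2FC 1.09 ± 0.292, adjusted P = 0.0604), and 40.8 to 86.3 CPM in HFD + RSV mice. Of 9 genes listed as receptors and partners of BDNF and METRNL, none was called. Ntrk2, the BDNF receptor, gave -0.96 ± 0.547 (adjusted P = 0.299) and Kit, reported as a METRNL receptor, gave -0.73 ± 0.217 (adjusted P = 0.074) in HFD against control.

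Il15 (ENSMUSG00000031712, chr8:82331632-82403222, minus strand) was the member with the smallest spread per length over the mice, with 75 to 169 counts each. It was at 5.62, 4.92, 2.93 and 6.14 CPM in control mice, 5.67, 7.03, 4.64 and 3.90 CPM in HFD mice, 4.40, 5.81, 3.97 and 4.35 CPM in HFD + MET mice, and 5.46, 5.42, 3.33 and 4.74 CPM in HFD + RSV mice. All groups overlapped. The log2FC was 0.12 ± 0.238 in HFD against control (confidence interval -0.39 to 0.63), -0.17 ± 0.238 in HFD + RSV against HFD (-0.67 to 0.34) and -0.20 ± 0.238 in HFD + MET against HFD (-0.70 to 0.31), with adjusted P values of 0.792, 0.999 and 0.821. Its pattern was most like those of Kcnn2 (r = 0.835), Pgam5 (r = 0.826) and Haus2 (r = 0.824).

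None of the 7 receptor and signalling genes listed for IL-15 and IL-6 was called. Il6ra, the IL-6 receptor, gave a log2FC of -1.17 ± 0.360 in HFD against control (adjusted P = 0.0801) and 0.85 ± 0.358 in HFD + MET against HFD (adjusted P = 0.618). Socs3, a feedback inhibitor of IL-6 signalling, was 3.32 to 3.95 CPM in control mice, 4.66 to 18.8 CPM in HFD mice, 1.57 to 4.65 CPM in HFD + MET mice and 2.69 to 4.83 CPM in HFD + RSV mice. Its log2FC was 1.43 ± 0.385 in HFD against control (adjusted P = 0.0604), -1.48 ± 0.386 in HFD + RSV against HFD (adjusted P = 0.999) and -1.44 ± 0.385 in HFD + MET against HFD (adjusted P = 0.533).

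Metrnl (ENSMUSG00000039208, chr11:121701544-121716306, plus strand) gave the tightest fold change of the members. It was at 3.65, 4.57, 4.69 and 3.28 CPM in control mice, 3.72, 3.74, 4.46 and 3.81 CPM in HFD mice, 6.54, 3.30, 5.53 and 3.59 CPM in HFD + MET mice, and 5.68, 6.03, 5.01 and 3.89 CPM in HFD + RSV mice. 3 of 4 HFD + RSV mice were above the highest HFD mouse, and the fourth was within the HFD range. The log2FC in HFD + RSV against HFD was 0.39 ± 0.212 (confidence interval -0.06 to 0.84), a 1.31-fold difference with an adjusted P of 0.999. It was -0.05 ± 0.213 in HFD against control (adjusted P = 0.923) and 0.26 ± 0.213 in HFD + MET against HFD (adjusted P = 0.736). The most similar patterns were those of Selenon (r = 0.857), Sgsm2 (r = 0.846) and Pip4k2a (r = 0.846).

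Sparc (ENSMUSG00000018593, chr11:55394500-55423183, minus strand) had 3268 to 8678 counts per mouse and did not separate the groups. It was at 184, 198, 293 and 263 CPM in control mice, 182, 171, 281 and 250 CPM in HFD mice, 303, 131, 367 and 139 CPM in HFD + MET mice, and 199, 253, 196 and 148 CPM in HFD + RSV mice. The HFD + MET group held the lowest and the highest values of all mice. The log2FC was -0.08 ± 0.308 in HFD against control (adjusted P = 0.897), -0.15 ± 0.308 in HFD + RSV against HFD (adjusted P = 0.999) and 0.09 ± 0.308 in HFD + MET against HFD (adjusted P = 0.948). Sparc followed adipocyte and basement membrane genes over the mice, with r = 0.854 for Adipoq, which encodes the adipocyte hormone adiponectin, r = 0.838 for Plin1 and r = 0.835 for Col4a1, and r = 0.428 for Col1a1. For Adipoq, Spearman rho was 0.821 and r was 0.808 without the 2 mice farthest from the median of Sparc. Within the groups r was 0.687 to 0.948 for Adipoq and 0.522 to 0.978 for Plin1, each lowest in HFD + RSV mice. HFD + MET 3, the mouse with the most Sparc, also had the most Adipoq (355 CPM) and the most Col4a1 (382 CPM). Control 3 had nearly as much Adipoq (352 CPM) with 293 CPM of Sparc. The part of adipocytes in the Sparc level was not tested. The genes most like Sparc were Fads3 (r = 0.944), Tuba1b (r = 0.933) and Anxa2 (r = 0.929). None of 12 matrix partners of SPARC was called in the main comparisons.

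**Figure D4:**
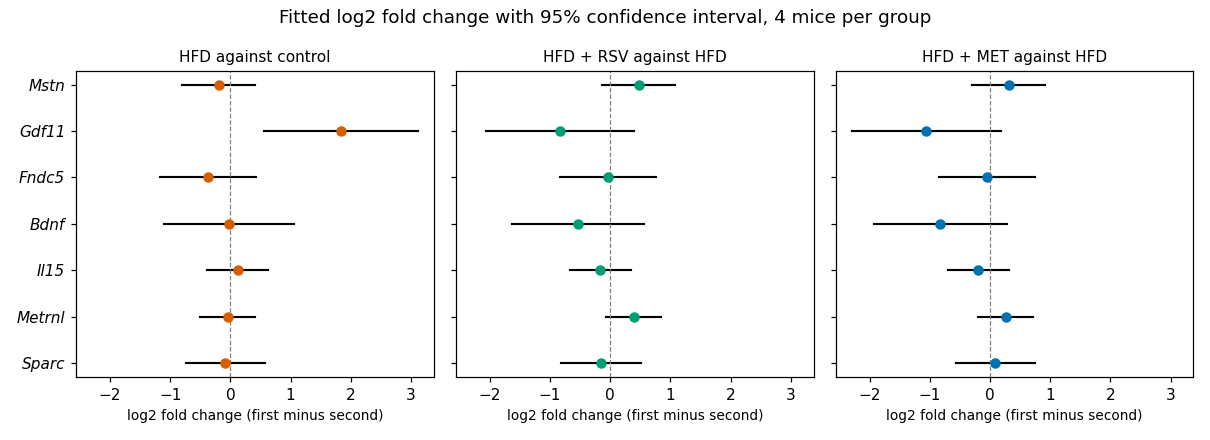
Fitted log2FC (points) with 95% confidence intervals (lines) of the 7 tested genes in 3 comparisons, with 4 mice per group. Only the interval of Gdf11 in HFD against control (0.56 to 3.11) lies to one side of 0, and the intervals of Il15 and Metrnl are the narrowest.

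Il6 (ENSMUSG00000025746, chr5:30013114-30019981, plus strand) was near the floor in every mouse. It had 10, 8, 7 and 7 counts in control mice, 5, 6, 0 and 2 in HFD mice, 0, 4, 0 and 13 in HFD + MET mice, and 6, 9, 11 and 8 in HFD + RSV mice. On the CPM scale the HFD mice (0 to 0.249 CPM) lay below the control mice (0.257 to 0.562 CPM) and the HFD + RSV mice (0.268 to 0.488 CPM). Among the genes tested, which do not include Il6, groups without overlap were found for 18.3% in HFD against control. In HFD + RSV against HFD they were found for 4.2%. An exact two-sided permutation test gave P = 0.0286 for both comparisons with the HFD group, among 9 such tests for the 3 low members. This is the smallest value that 4 mice against 4 allow, and it restates the lack of overlap. In the fit without the filter on low counts the adjusted P values were 0.422 and 1. The highest HFD mouse had 6 counts, the lowest control mouse 7 and the lowest HFD + RSV mouse 6. The HFD + MET mice overlapped all of these groups.

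Fgf21 (ENSMUSG00000030827, chr7:45613886-45615490, minus strand) had 2, 1, 5 and 5 counts in control mice, 0, 3, 4 and 0 in HFD mice, 3, 0, 2 and 1 in HFD + MET mice and 0, 4, 2 and 1 in HFD + RSV mice. Gdf15 (ENSMUSG00000038508, chr8:70629393-70632456, minus strand) had 2, 3, 5 and 0 counts in control mice, 0, 5, 4 and 4 in HFD mice, 2, 2, 2 and 3 in HFD + MET mice and 3, 7, 1 and 2 in HFD + RSV mice. All groups overlapped, and the exact permutation P values in the 3 main comparisons were 0.229 to 1 for Fgf21 and 0.6 to 0.971 for Gdf15. A difference in these genes was not detectable at this depth, and no fold is given.

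Ret, the co-receptor through which the GDF15 receptor signals and also the receptor of the GDNF family, was the only gene of the pathway lists that passed the test. It was at 4.10, 5.18, 3.52 and 4.52 CPM in control mice and 9.95, 10.1, 13.5 and 9.60 CPM in HFD mice, without overlap, and its log2FC was 1.32 ± 0.215 (adjusted P = 0.0149). It was at 10.3, 6.59, 4.86 and 6.65 CPM in HFD + MET mice and 7.11, 8.76, 6.43 and 5.41 CPM in HFD + RSV mice, with a log2FC against HFD of -0.61 ± 0.210 (adjusted P = 0.605) and -0.64 ± 0.210 (adjusted P = 0.999). All 4 HFD + RSV mice were below the HFD mice. Groups that do not overlap were found for 18.3% of all genes in HFD against control. They were found for 4.2% in HFD + RSV against HFD and for 3.72% in HFD + MET against HFD, and in both of these for none of the 7 tested members. Without control 3 the adjusted P of Ret in HFD against control was 0.0522. Gfral, the GDF15 receptor itself, was not found among the gene names of the mRNA table. Of the 15 genes measured in the list of FGF21 and GDF15 receptors and stress regulators, Ret alone was called, and the median log2FC in HFD against control was -0.59. Klb, the FGF21 co-receptor that adipocytes also express, gave -3.18 ± 1.20 (adjusted P = 0.132) in HFD against control. In this comparison 4 of the 5 white and 2 of the 3 brown adipocyte markers above also gave a negative log2FC. Lep of the white list and Cox8b of the brown list gave a positive one. The part of adipocytes in the Klb level was not tested.

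Over all 7 lists, 93 of 98 genes were tested, 1 was called in HFD against control (all genes 2.43%) and none in the other main comparisons. At an unadjusted P under 0.05, 26 of 93 passed in HFD against control (10 higher, 16 lower), 10 in HFD + RSV against HFD and 9 in HFD + MET against HFD. These are 28%, 10.8% and 9.68% of the list genes, beside 24.2%, 4.72% and 8.02% of all genes tested. Their median log2FC was -0.08, 0.01 and 0.03, respectively.

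The split of counts between transcripts, which StringTie estimates where transcripts share exons, was steady for some members and not for others. Fndc5, Gdf11, Gdf15 and Fgf21 each had a single transcript in the table, and Sparc-202 held 91.3% of the Sparc counts. Il15-201 held 50.4% of the Il15 counts over all mice, but its share ranged from 31.4% to 83.9% in control mice and from 0% to 62.7% in HFD + RSV mice. In HFD + RSV 4, where Il15-201 had 0 counts, Il15-202 held 68.9%. Metrnl-202 held 22.8% of the pooled Metrnl counts of control mice (3 of 4 mice above 0) and 25.3% of those of HFD mice (3 of 4), 9.13% in HFD + MET mice (1 of 4) and 0 counts in all 4 HFD + RSV mice. Bdnf-205 was the leading Bdnf transcript in all 16 mice, with 68.8% of counts. Bdnf-208 had counts in 3 of 4 control mice and all 4 HFD + RSV mice (5 to 13 counts), 1 HFD + MET mouse and no HFD mouse. These shares rest on few counts per transcript and were not tested. How often transcripts of all genes show such patterns is not given here.

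**Figure D5:**
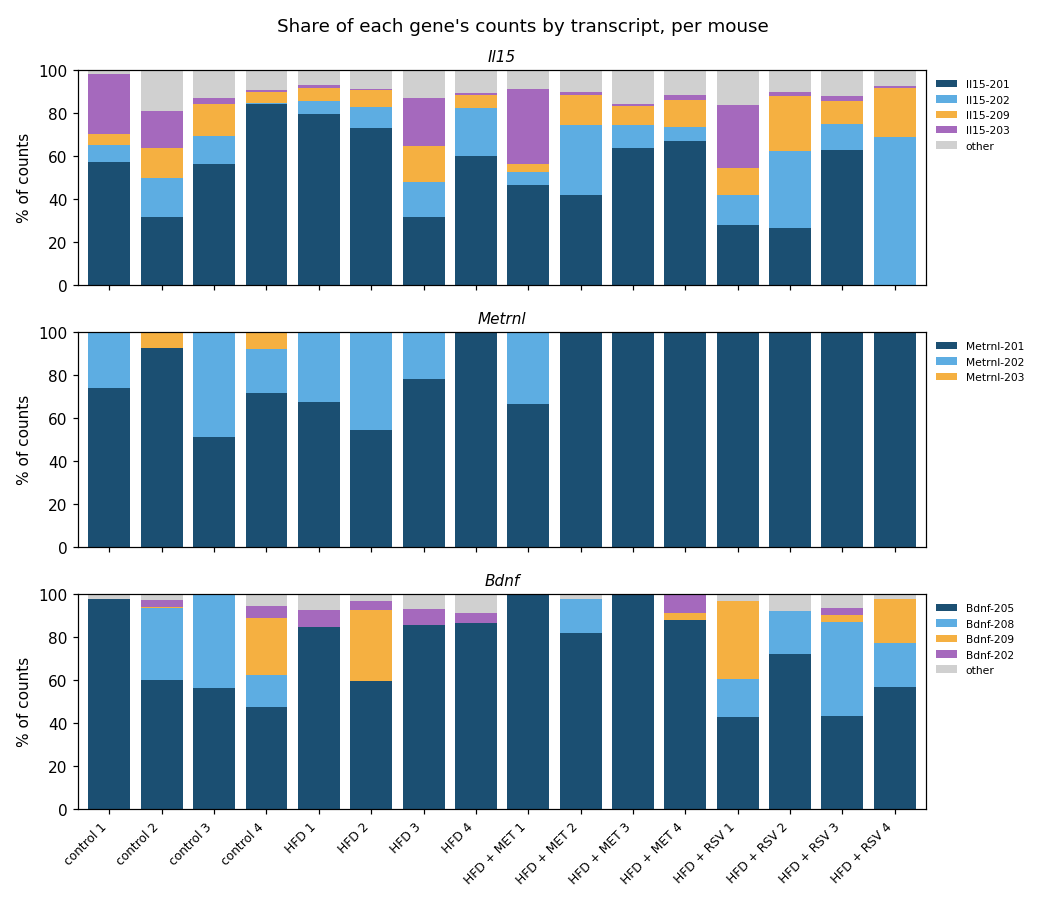
Share of the counts of Il15, Metrnl and Bdnf assigned to each transcript (vertical axis, percent) in each of the 16 mice (horizontal axis), with the 4 transcripts of highest mean share in colour and the rest in grey. Metrnl-201 takes all Metrnl counts in the 4 HFD + RSV mice, and Bdnf-208 has no counts in the 4 HFD mice.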

How the data were processed

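Skeletal muscle RNA of 16 mice (4 per group) was analysed. According to the study's methods, ribosomal RNA was removed and fragments were counted with StringTie, and the submitters' processing notes name fastp, HISAT2 and GRCm38. The authors deposited expected counts per transcript, given as whole numbers without normalization, in an mRNA table and a lncRNA table. The deposited FPKM values stand beside the counts and were used only to compare levels between genes. 4 mRNA transcripts that were split over 2 lines were joined, and counts were summed by gene name. All 37 transcripts of the members had GENCODE M21 coordinates. Members and gene lists were chosen with earlier results of these data known.

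Counts were fitted with edgeR 4.0.16 in R 4.3.3 to all 16 mice (quasi-likelihood, robust, TMM scaling), after filtering genes with filterByExpr on the groups, with at least 10 counts and at least 15 in total. CPM values use the TMM library sizes, and log2 CPM values a prior count of 2. The 6 pairwise comparisons and a test of any difference were adjusted with the Benjamini-Hochberg procedure over 15364 genes. On simulated counts for HFD against control, 59% of 200 genes changed by a log2FC of 1 were recovered among 15218 genes, and 85% of 200 changed by 2 among 15215 genes. Low members were tested on log2 CPM with exact two-sided permutation tests in scipy 1.17.1. All members are named. From the pathway lists, up to 4 genes per list and comparison at adjusted P < 0.05 were to be named, and for each tested member the 3 genes with the highest r. Alternatives were RLE factors, library totals alone, no filter, DESeq2 1.42.0, an unadjusted P under 0.05 with an absolute log2FC above 1 (the study names these limits beside a false discovery rate), fits to the 2 groups compared, and fits without each mouse. The floor covers counting error only.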

Additional observations from a re-analysis of the deposited data

Results flagged for a closer look

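Metrnl in the HFD group was flagged because 1 mouse stood apart. HFD 3 was highest, and its gap to the next mouse was 0.867 of the range of the 4 log2 CPM values. This was 1 of 28 sets of 4 mice tested, and chance flags about 1 in 20.

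The lncRNA table, which the comparisons do not use, held signal inside 2 members above the floor of 3 counts in every mouse. NONMMUT013191.2 (chr11:121702427-121705305), within Metrnl, had a median of 33.5 counts per mouse (20 to 63). NONMMUT009837.2 (chr11:55417290-55419868), within Sparc, had a median of 99.5 counts (72 to 189). Their strands were not compared with those of the genes, and the libraries do not mark strand.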

How the results depend on the processing

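No paired analysis was possible because the replicate numbers only name mice. Of 924 values of log2FC recomputed for the 7 tested members, 861 kept their direction and their side of the threshold, 3 passed it (Gdf11 in HFD against control, given above), and 60 changed sign, none of them in a called result. With library totals alone, Il15 gave -0.036 in HFD against control and -0.019 in HFD + RSV against HFD + MET, and Fndc5 gave 0.024 in HFD + RSV against HFD, 0.060 in HFD + MET against HFD and -0.036 in HFD + RSV against HFD + MET. In the fit to 2 groups, Sparc gave -0.00016 in HFD + MET against control. Without control 3 and HFD + MET 3, an alternative chosen after the data were seen, Il15, Metrnl and Sparc gave -0.066, 0.028 and 0.040 in HFD against control, Fndc5 and Sparc gave 0.065 and -0.21 in HFD + MET against HFD, Sparc gave -0.17 in HFD + MET against control, and Fndc5, Il15, Gdf11 and Sparc gave -0.090, -0.029, -0.00065 and 0.068 in HFD + RSV against HFD + MET. When 1 mouse was left out, the following log2FC values crossed 0. In HFD against control, Metrnl gave -0.13 to 0.0302, Bdnf gave -0.31 to 0.43, Il15 gave -0.0659 to 0.25, Sparc gave -0.22 to 0.0398. In HFD + RSV against HFD, Fndc5 gave -0.27 to 0.15. In HFD + MET against HFD, Fndc5 gave -0.35 to 0.13, Sparc gave -0.21 to 0.29. In HFD + RSV against control, Il15 gave -0.23 to 0.0922. In HFD + MET against control, Sparc gave -0.29 to 0.20, Mstn gave -0.0334 to 0.26, Il15 gave -0.26 to 0.0505. In HFD + RSV against HFD + MET, Fndc5 gave -0.22 to 0.31, Gdf11 gave -0.27 to 0.81, Metrnl gave -0.0137 to 0.32, Il15 gave -0.0435 to 0.17, Sparc gave -0.44 to 0.0606, Bdnf gave -0.0136 to 0.83, Mstn gave -0.081 to 0.38.

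The number of genes called over the whole table moved with the setting. For HFD against control (374) it was 186 with library totals alone, 158 without the filter, 1544 with DESeq2, 759 with the unadjusted P and log2FC limits and 998 in the fit to 2 groups, and it was 16 to 1588 when 1 mouse was left out (16 without control 2, 1588 without HFD + MET 3). For HFD + RSV against HFD (0) it was 8 with DESeq2 and 166 with these limits. For HFD + MET against HFD (2) it was 1 with library totals alone and in the fit to 2 groups, 31 with DESeq2, 271 with these limits and 0 without both libraries. For HFD + RSV against control (1) it was 0, 355, 418 and 53 with library totals, DESeq2, these limits and without both libraries. For HFD + MET against control (0) it was 141, 250 and 38 with the last 3 of these. For HFD + RSV against HFD + MET (0) it was 10 with DESeq2 and 149 with these limits. For any difference (18) it was 10 with library totals, 773 with DESeq2 and 87 without both libraries. With 1 mouse left out, the count ranged as follows. It was 0 to 1 in HFD + RSV against HFD. It was 0 to 2 in HFD + MET against HFD. It was 0 to 261 in HFD + RSV against control. It was 0 to 180 in HFD + MET against control. It was 1 to 474 for any difference. The cause was not tested. Depth limits Il6, Fgf21 and Gdf15, and spread between mice limits Gdf11 and Bdnf, whose biological coefficients of variation were 0.554 and 0.491.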

Other observations

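Among 30 other muscle-secreted factors, of which 27 were tested, none was called in the 3 main comparisons. Ostn, which encodes the muscle hormone musclin, was chosen after its values were seen. It was at 52.4 and 50.8 CPM in HFD + RSV 2 and HFD + RSV 4 and at 5.41 and 5.01 CPM in the other 2 HFD + RSV mice, and the remaining 12 mice had 2.81 to 7.14 CPM. The log2FC in HFD + RSV against HFD was 2.32 ± 0.634 (adjusted P = 0.999), and the difference came from 2 of 4 mice. The same 2 mice had the highest Mstn levels of the series, 112 and 93.4 CPM.

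Igf1, an insulin-like growth factor that muscle also releases, was lower in every HFD mouse than in every control mouse, with a log2FC of -0.74 ± 0.228 (adjusted P = 0.0822) that did not pass the test. Groups without overlap were found for 18.3% of all genes tested in this comparison. In HFD + RSV against HFD the log2FC of Igf1 was 0.55 ± 0.228 (adjusted P = 0.999), again without overlap (4.2% of all genes). That gap was narrow, with 30.5 CPM in the highest HFD mouse and 30.6 CPM in the lowest HFD + RSV mouse. The lowest control mouse had 37.5 CPM. In HFD + MET against HFD the log2FC was 0.56 ± 0.228 (adjusted P = 0.618). Il2rb, the receptor subunit shared by IL-2 and IL-15, had 10 to 25 counts in control mice, 0 to 6 in HFD mice, 7 to 27 in HFD + MET mice and 4 to 23 in HFD + RSV mice, which is too close to the floor for a fold against the HFD group. The HFD mice are shared by these comparisons.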
